A study of Mus musculus with 2 samples.

Results

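The accessible domains described here are stretches of open chromatin wider than 2000 bp in mouse germ cells. A peak of replicate 1 that overlapped a peak of replicate 2 by 1 bp or more was joined with it to the union of both, unions within 500 bp of each other were merged, and merged domains wider than 2000 bp were kept. This gave 217 wide domains among 73738 merged domains, which is 0.294% of them. They were chosen by the positions and widths of the peaks themselves, so width, peak number and fold are given as descriptions and no test was made.

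The data are ATAC-seq peak lists of 2 libraries from GSCs with the genotype Stag3 KO. In this field GSC stands for germline stem cell, a cultured cell of the spermatogonial lineage. The product of Stag3 is the germline form of the stromal antigen (SA) subunit of cohesin, and every library used here carried this knockout. The cells belonged to a line labelled Acrosin-EGFP; beta-Actin-EGFP (AAG), and viable AAG-positive cells were sorted before transposition. Both libraries form 1 group. Whether these are separate cultures is not in the labels, and their spread may therefore be technical only. Wild-type libraries were not analysed here, and no value below is a difference made by the knockout.

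In ATAC-seq the Tn5 transposase cuts DNA that is not wrapped in nucleosomes or otherwise covered, and peaks mark where its cuts pile up. Most active promoters are open over a short stretch upstream of the start site. In mammals many of them are CpG islands, which are rich in the CG dinucleotide that is depleted elsewhere in the genome. Developmental regulator genes can have unusually long CpG islands. Cohesin folds chromosomes into loops that connect promoters with distant elements.

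The promoters below are the first 6, in order of domain width, whose listed window lies wholly inside a wide domain, followed by Lin28a and Stag1, which were added after their values were seen. Each run is the listed promoter from RefSeq on GRCm38.p6, 250 bases before to 50 bases after the start, 5′ to 3′ on the strand of the gene, with each CG dinucleotide in capitals. They are shown because CG content is what most of these windows share. LOC108167694 is a predicted gene at the widest domain. Arid1b encodes a DNA-binding subunit of the SWI/SNF remodelling complex, and Cpeb1 encodes a protein that controls polyadenylation and translation of stored mRNA. Erbin encodes a scaffold that binds the receptor kinase ErbB2. Gm36722 and the zinc finger and homeobox gene Tshz3 have facing starts in 1 domain. Lin28a encodes an RNA-binding protein that blocks let-7 maturation and marks undifferentiated spermatogonia, and Stag1 encodes a somatic paralogue of the deleted subunit.
LOC108167694, chr9:124423351-124423650, minus strand: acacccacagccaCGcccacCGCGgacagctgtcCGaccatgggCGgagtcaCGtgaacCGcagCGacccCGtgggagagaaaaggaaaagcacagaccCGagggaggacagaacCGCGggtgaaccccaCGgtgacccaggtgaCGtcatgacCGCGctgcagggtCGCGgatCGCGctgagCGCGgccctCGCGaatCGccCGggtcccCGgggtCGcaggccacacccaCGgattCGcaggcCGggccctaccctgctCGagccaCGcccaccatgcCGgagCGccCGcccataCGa
Arid1b, chr17:4994824-4995123, plus strand: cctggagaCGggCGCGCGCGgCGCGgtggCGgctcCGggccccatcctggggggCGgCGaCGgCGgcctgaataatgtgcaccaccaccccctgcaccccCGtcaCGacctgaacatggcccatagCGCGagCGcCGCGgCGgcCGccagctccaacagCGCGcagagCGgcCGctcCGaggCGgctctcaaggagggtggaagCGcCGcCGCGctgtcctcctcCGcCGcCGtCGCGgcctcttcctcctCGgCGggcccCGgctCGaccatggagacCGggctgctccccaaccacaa
Cpeb1, chr7:81454709-81455008, minus strand: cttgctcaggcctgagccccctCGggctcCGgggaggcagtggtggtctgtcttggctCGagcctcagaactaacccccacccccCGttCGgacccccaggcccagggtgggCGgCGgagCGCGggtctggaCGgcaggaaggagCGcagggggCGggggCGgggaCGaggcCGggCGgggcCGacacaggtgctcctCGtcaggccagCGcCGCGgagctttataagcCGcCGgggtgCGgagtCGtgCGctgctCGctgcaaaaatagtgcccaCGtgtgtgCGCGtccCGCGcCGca
Erbin, chr13:103920537-103920836, minus strand: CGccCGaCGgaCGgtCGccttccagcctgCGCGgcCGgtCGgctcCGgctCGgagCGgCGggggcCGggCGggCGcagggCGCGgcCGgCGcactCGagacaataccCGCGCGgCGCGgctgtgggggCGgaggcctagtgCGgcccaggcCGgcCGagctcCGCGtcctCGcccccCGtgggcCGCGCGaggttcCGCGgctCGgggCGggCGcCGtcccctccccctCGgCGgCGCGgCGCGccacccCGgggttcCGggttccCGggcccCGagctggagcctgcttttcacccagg
Gm36722, chr7:36698173-36698472, minus strand: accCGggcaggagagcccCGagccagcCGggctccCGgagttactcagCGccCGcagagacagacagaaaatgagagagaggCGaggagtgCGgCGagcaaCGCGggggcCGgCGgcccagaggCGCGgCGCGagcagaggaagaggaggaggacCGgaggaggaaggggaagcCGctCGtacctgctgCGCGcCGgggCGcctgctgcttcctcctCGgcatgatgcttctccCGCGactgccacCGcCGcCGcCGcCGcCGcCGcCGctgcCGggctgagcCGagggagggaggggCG
Tshz3, chr7:36697868-36698167, plus strand: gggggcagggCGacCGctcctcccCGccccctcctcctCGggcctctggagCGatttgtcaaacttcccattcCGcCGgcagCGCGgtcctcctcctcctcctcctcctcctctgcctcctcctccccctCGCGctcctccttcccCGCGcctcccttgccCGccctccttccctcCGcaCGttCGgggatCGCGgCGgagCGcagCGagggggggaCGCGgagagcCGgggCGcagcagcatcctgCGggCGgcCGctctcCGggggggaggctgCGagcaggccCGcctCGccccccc
Lin28a, chr4:134018767-134019066, minus strand: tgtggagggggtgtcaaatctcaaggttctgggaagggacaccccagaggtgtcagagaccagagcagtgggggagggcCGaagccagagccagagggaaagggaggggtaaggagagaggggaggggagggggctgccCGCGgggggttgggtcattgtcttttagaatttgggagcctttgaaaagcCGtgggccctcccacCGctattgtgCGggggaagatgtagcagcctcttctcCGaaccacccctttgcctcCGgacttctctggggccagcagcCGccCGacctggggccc
Stag1, chr9:100643198-100643497, plus strand: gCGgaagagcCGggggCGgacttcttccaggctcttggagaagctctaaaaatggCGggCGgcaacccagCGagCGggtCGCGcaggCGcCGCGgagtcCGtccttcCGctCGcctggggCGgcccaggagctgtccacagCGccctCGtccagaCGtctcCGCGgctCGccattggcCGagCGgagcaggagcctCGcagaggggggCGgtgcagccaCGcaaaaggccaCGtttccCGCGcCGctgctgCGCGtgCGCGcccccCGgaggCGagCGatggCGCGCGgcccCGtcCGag
The first 6 windows hold 33 to 53 CG dinucleotides each, and their observed-to-expected CG ratio runs from 0.797 in Tshz3 to 1.05 in Erbin. Stag1 is like them, with 43 CG and a ratio of 1.06. Lin28a is the exception among the 8, with 10 CG and a ratio of 0.351.

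Replicate 1 held 107331 peaks and replicate 2 held 98986. Of these, 83732 and 84032 overlapped a peak of the other library. The median fold, the enrichment over local background that the authors' peak caller gave, was 8.78 and 8.73 over all peaks. Read depth per library is unknown, but tags, the fragment ends piled up at each summit, were recovered from the fold and the p-value, with a median of 40 and 41. Among genes chosen as cell type markers, a merged domain reached a gene end in 12 of 12 for undifferentiated spermatogonia, 7 of 14 for testis somatic and feeder cells and 3 of 10 for endothelial and blood cells, against 14393 of 21887 coding genes. No marker of any of the 3 sets had a wide domain, which only 191 of 21887 coding genes had.

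Wide domains were the tail of a smooth width distribution. The median merged domain was 413 bp wide, whereas the wide domains had a median of 2177 bp, quartiles of 2080 and 2342 bp and a maximum of 3554 bp. Of the 217, 70 measured 2001 to 2100 bp, 23 exceeded 2500 bp and 5 exceeded 3000 bp. Together they covered 487.5 kb, or 1.23% of all bases in merged domains.

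**Figure D1:**
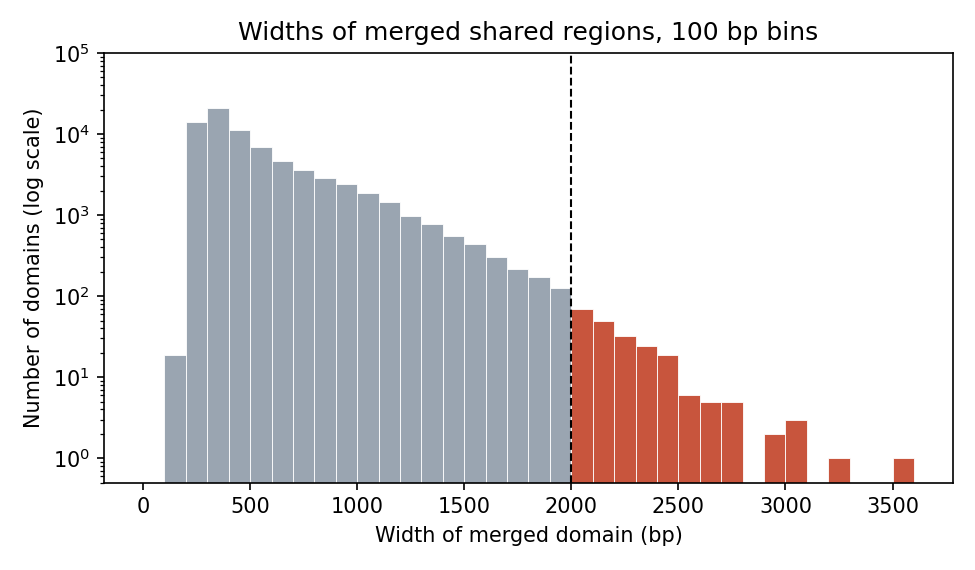
Number of merged domains (log scale) by width in 100 bp bins, with the 217 wide domains in red to the right of the dashed line at 2000 bp. The counts fall steadily from 21078 domains of 301 to 400 bp to 70 domains of 2001 to 2100 bp, with no step at the limit.

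The domains nearest the limit overlapped in fold on both sides. Just outside lay, among others, domains of 1995 and 1994 bp at Krcc1 and Ecpas. Just inside lay a domain of 2002 bp within Fbxl2, 1 of 2005 bp with no coding gene and 1 of 2005 bp between the ends of Bfsp1 and Dstn. The highest fold in these 2 outer domains was 16.5 and 9.75 in replicate 1 and 15.7 and 9.76 in replicate 2. In the 3 inner ones it was 14.3, 6.07 and 10.9 in replicate 1 and 20.9, 8.49 and 13.2 in replicate 2.

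A wide domain was a row of ordinary peaks and almost never a single broad peak. The 217 domains held 712 peaks of replicate 1 and 710 of replicate 2, with a median of 3 and a range of 1 to 6 in each library. These peaks had a median width of 385 bp in replicate 1 and 373.5 bp in replicate 2, against 322 and 324 bp over all peaks. The widest single peak of either list measured 1930 bp in replicate 1 and 2223 bp in replicate 2, and the latter formed the whole replicate 2 part of the domain at Kansl1l, a relative of a gene for a histone acetyltransferase complex component. Once peaks of both libraries were overlaid, 7 domains were 1 unbroken stretch, 51 had 2 stretches, 113 had 3, 39 had 4, 6 had 5 and 1 had 6. Peaks covered a median of 71.1% of a domain in replicate 1 and 71.3% in replicate 2, with ranges of 46.7% to 99.2% and 40.5% to 98.8%. Neighbouring summits lay a median of 691 bp apart in replicate 1 and 688 bp apart in replicate 2, with quartiles of 518 and 876 bp and of 526 and 897 bp. The strongest summit lay in the outer 25% of the domain at either side in 131 of 217 domains in each library. A domain starts and ends with a peak by definition, so nothing is read from that count. The number of domains follows from the joining distance: 69 were wide with 250 bp in place of 500 bp and 770 with 1000 bp.

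The limit of 2000 bp was not always passed in each library. The rule takes overlapping peaks of both, so it makes their extents in a domain nearly equal by construction. From the first to the last peak, the median extent was 2117 bp in replicate 1 and 2127 bp in replicate 2. The 2 extents differed by a median of 58 bp, by 100 bp or less in 141 domains and by more than 500 bp in 2. Those 2 were the domain between Coq8b and Numbl, with 2403 and 1858 bp, and the domain at Alox12, with 1771 and 2310 bp. When each library was merged without the other, 210 domains wider than 2000 bp came from replicate 1 and 203 from replicate 2, a mean of 206.5 ± 4.95 (SD, n = 2). Of these, 97 touched a wide domain of the other library, which is 46.2% of the replicate 1 set and 47.8% of the replicate 2 set. Among the 217 joined domains, 96 passed the limit in both libraries alone, 97 in 1 library and 24 in neither. Which side of the limit a domain fell on thus often differed between the libraries.

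**Figure D2:**
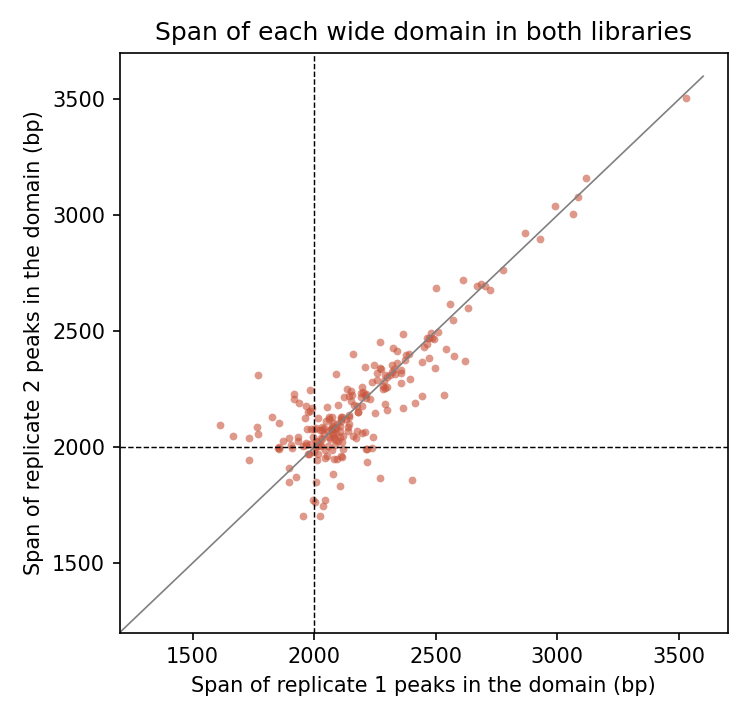
Extent from the first to the last peak of replicate 1 (horizontal, bp) against that of replicate 2 (vertical, bp) for the 217 wide domains, 1 point per domain, with dashed lines at 2000 bp and the line of equality. Points lie near the line of equality, as the rule makes them, with a median difference of 58 bp, and many lie close to a dashed line.

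Peaks in wide domains had low folds but not few tags. Their median fold was 5.42 in replicate 1 and 5.47 in replicate 2, against 11.0 and 10.3 for shared peaks elsewhere. Their median tag number was 57.5 and 62, against 52 and 49. The local background beneath them was 9.84 and 10.8 tags, against 3.60 and 3.56. These sets are unlike, since peaks in wide domains include some that overlap no peak of the other library. Over all peaks, shared or not, the median fold was 8.78 and 8.73, with 40 and 41 tags on a background of 3 and 3.2 tags. The fold divides by this background, which is taken from the surroundings of the peak and can include the rest of the domain. The same pattern held for the strongest peak of each domain across width classes. Its median fold was 8.47 and 8.70 in wide domains, 10.5 and 11.1 in 1262 domains of 1501 to 2000 bp, 13.0 and 13.5 in 5596 domains of 1001 to 1500 bp, and 12 and 11.2 in 66663 domains of 1000 bp or less. The corresponding tags were 98 and 102, 98 and 104, 96 and 104, and 53 and 49. Background rose with width, from 3.04 and 2.92 tags in the narrowest class to 9.98 and 10.8 in the wide domains. Summed over the peaks of a domain, wide domains held a median of 218 and 236 tags, against 54 and 50 in the narrowest class.

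Compared with the typical peak, the highest folds of wide domains stood on both sides of the library median. These are unlike measures, since the highest of several peaks is set against single peaks and so tends to be higher. Single peaks in wide domains had a median fold of 5.42 and 5.47, against 8.78 and 8.73 over all peaks. The highest fold was above the median of all peaks in both libraries in 84 domains and below it in both in 93. It reached the upper 10% of all peaks in both libraries in 0 of the 217. The 5 domains of highest fold lay at Arhgap21, a GTPase-activating protein gene (21.1 and 21.8), at Bmt2, an inhibitor of mTORC1 (19.7 and 22.1), within the potassium channel gene Kcnk13 (18.3 and 19.13), at Wwtr1, which encodes the Hippo effector TAZ (18.2 and 18.7), and at Pex5, the peroxisomal import receptor (18.3 and 18.4). The 5 of lowest fold lay at the cytokine receptor gene Crlf2 (3.98 and 3.74), the homeobox gene Gsc (3.98 and 4.94), the Notch ligand gene Dll1 (4.26 and 5.74), Lin28a (5.15 and 4.86) and the kinase gene Akt1 (4.75 and 5.88). Crlf2 stood apart even among these, since its strongest peaks had 388 and 306 tags on a background of 96.7 and 81.1 tags, whereas those of Lin28a had 40 and 35 tags on a background of 6.96 and 6.40.

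The widest domain, 3554 bp at chr9:124422441-124425994, held 6 peaks in each library and reached the ends of 2 predicted coding genes, LOC108167694 and Gm20783. Its highest fold was 6.06 and 5.87, with 272 and 282 tags on a background of 44.1 and 47.2 tags. The median background over all wide domains was 9.98 and 10.8 tags. The next, 3209 bp at chr6:108658607-108661815, lay across the lower end of Bhlhe40, which encodes a basic helix-loop-helix repressor of clock and hypoxia responses. It held 5 peaks in each library with folds of 3.19, 4.27, 6.38, 4.79 and 5.94 in replicate 1 and 2.97, 5.49, 5.65, 5.58 and 4.77 in replicate 2, in order along the chromosome. No single peak dominated, and each peak overlapped one of the other library. The third, 3086 bp, held tRNA genes and is described with them below.

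The fourth domain, 3064 bp, lay within Cpeb2, a relative of Cpeb1 that also regulates translation, 7115 bp from the lower end of the gene, with highest folds of 9.0 and 9.76. The fifth, 3041 bp, reached an end of Spaca6, a sperm membrane protein gene needed for gamete fusion, with 7.14 and 7.80. The domain at Foxe1, a forkhead regulator of thyroid development, measured 2931 bp and held 4 peaks per library. Their folds were 5.97, 5.09, 2.92 and 4.38 in replicate 1 and 5.86, 3.81, 3.56 and 2.86 in replicate 2, so the strongest lay at the same edge in both. The Foxe1 domain passed 2000 bp in neither library alone, with 1835 bp in replicate 1 and 1148 bp in replicate 2. At Gse1, which encodes a cofactor of a histone demethylase complex, the domain measured 2923 bp with highest folds of 6.30 and 6.56. At Csf2ra, a cytokine receptor subunit gene near the end of chromosome 19, it measured 2779 bp with 8.80 and 8.98 on a background of 29.0 and 31.6 tags.

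The remaining 7 of the 15 widest domains spanned 2658 to 2759 bp. They lay at Arid1b (6.05 and 6.74), at Clasp1, a microtubule plus-end protein gene (8.48 and 10.2), at Vwc2, an extracellular BMP antagonist gene (8.23 and 7.76), within Catsperg1, a subunit gene of the sperm calcium channel (7.22 and 7.76), within Cpeb1 (6.84 and 9.02), at Erbin (6.63 and 6.91), and at Tshz3 with Gm36722 (7.04 and 5.17). Arid1b held 5 peaks in each library, with the strongest at the same edge in both. When each library was merged alone, the domains within Cpeb2, Catsperg1 and Cpeb1 and at Gse1 passed 2000 bp in replicate 1 only.

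**Figure D3:**
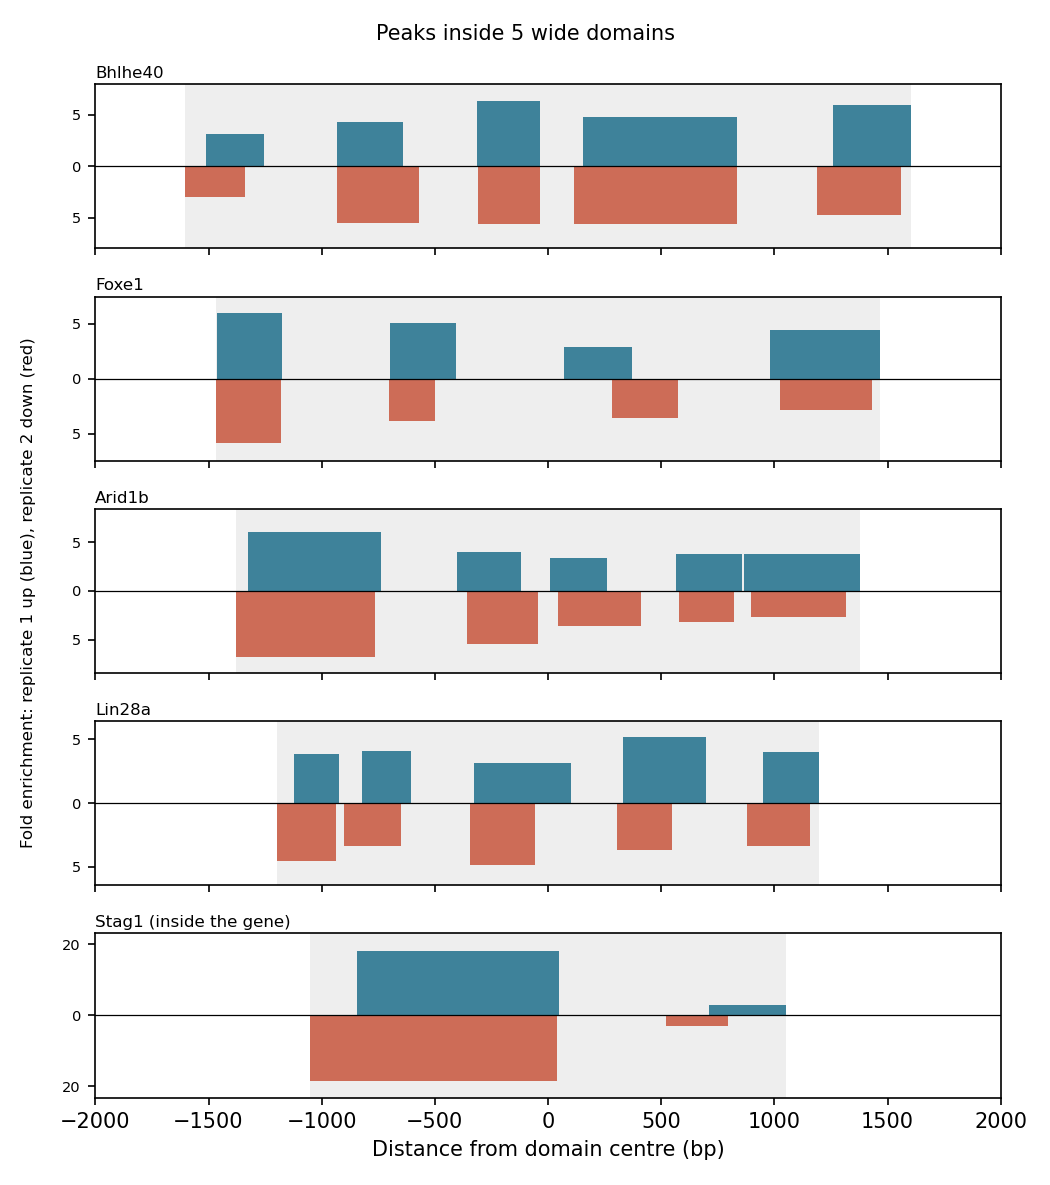
Peaks inside 5 wide domains (grey), with distance from the domain centre in bp on the horizontal axis and fold enrichment as bar height, replicate 1 upward in blue and replicate 2 downward in red, each panel on its own scale. The domains at Bhlhe40, Foxe1, Arid1b and Lin28a are rows of 4 or 5 peaks per library with folds between 2.65 and 6.74, whereas the domain inside Stag1 is 1 strong peak of fold 18 and 18.5 with a weak one of 2.91 and 2.86 beside it. The domains at Foxe1 and inside Stag1 passed 2000 bp in neither library alone.

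Wide domains lay mostly at genes. A domain was counted at a gene when it reached within 1000 bp of either end of the gene model, which does not use strand and can be a 3′ end. By this measure 169 of 217 wide domains (77.9%) were at a protein-coding gene, against 19.7% of the merged domains of 2000 bp or less. A longer stretch reaches a window more easily, and when only the domain centre was counted the share was 62.2% in wide domains, 66.6% in those of 1501 to 2000 bp, 57.0% in those of 1001 to 1500 bp and 14.2% in those of 1000 bp or less. By centre, then, wide domains were at gene ends about as often as the next narrower classes. The 169 domains reached 191 coding genes, which is 0.873% of 21887 coding genes and 1.33% of the 14393 with any merged domain at an end. In 22 cases 1 domain reached the ends of 2 genes, as with Coq8b and Numbl, Zbtb25 and Zbtb1, Lonp1 and Catsperd, and Bfsp1 and Dstn. No coding gene had more than 1 wide domain. Another 36 domains lay within a coding gene away from its ends, and 12 touched no coding gene.

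Where start sites were listed, wide domains usually covered one and extended further into the gene than upstream of it. The promoter table has no entries for chromosome 18, which left 208 domains. Of these, 142 (68.3%) covered a listed start of a coding gene, against 61.3% of domains of 1501 to 2000 bp and 13.9% of all narrower domains. A longer domain covers a start more easily, and no count by domain centre was made for starts. In 12 domains starts of 2 or more genes were covered, and in 12 starts on both strands. For the 148 genes whose first listed start lay in a wide domain, a median of 842 bp of the domain lay upstream and 1372 bp downstream, and the longer part was downstream for 100 (67.6%). In domains of 1501 to 2000 bp the medians were 691 and 992 bp over 775 genes, with the longer part downstream for 61.9%. Tshz3 was an exception with 2192 bp upstream and 465 bp downstream, while its neighbour's start lay in the same domain. Ldha, a glycolytic enzyme gene, was the opposite, with 155 bp upstream and 2200 bp downstream.

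**Figure D4:**
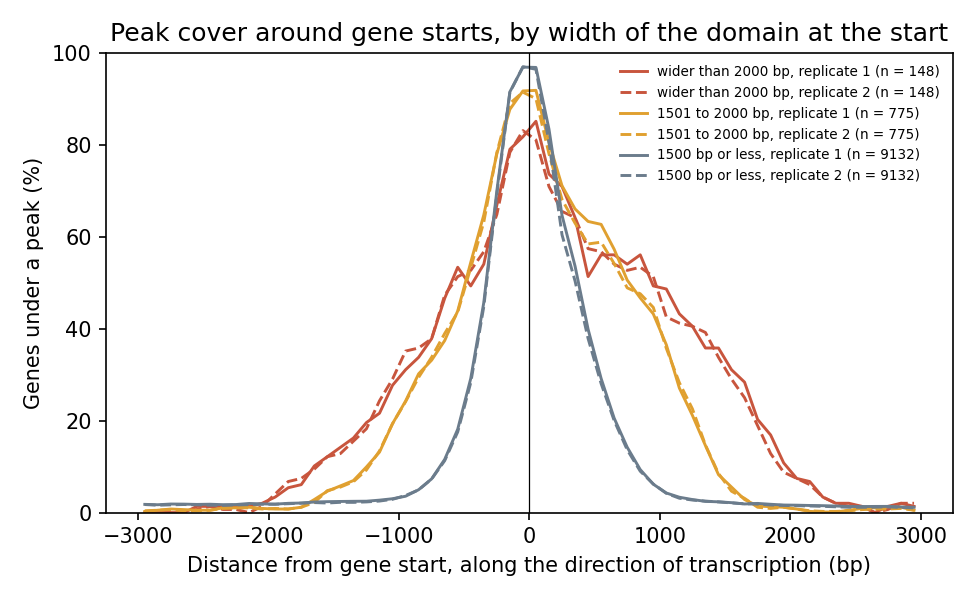
Share of genes (%) with a peak at each distance from the listed start, in 100 bp bins along the direction of transcription, for starts in wide domains (n = 148), in domains of 1501 to 2000 bp (n = 775) and in narrower domains (n = 9132), replicate 1 solid and replicate 2 dashed. In the bin centred 1450 bp downstream, 35.8% and 33.8% of wide-domain genes had a peak against 14.2% and 12.8% at the same distance upstream, while at the start itself the wide class was lower than the others. Peaks also cover less of a domain in the wide class.

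At the start itself, wide domains were less often under a peak than narrower ones. In the first 100 bp downstream, 85.1% and 81.1% of the 148 genes had a peak in replicate 1 and replicate 2, against 91.9% and 90.1% in domains of 1501 to 2000 bp and 96.9% and 96.5% in narrower ones. A start in a wide domain could fall in a gap between peaks. Peaks covered a median of 71.1% and 71.3% of a wide domain, against 77.4% and 76.4% in domains of 1501 to 2000 bp. In domains of 1000 bp or less they covered 96.6% and 94.5%. Starts were taken inside domains, so a lower share at the start follows from this cover. The greater reach at a distance follows from the rule. Nothing is read from either.

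Listed promoters in wide domains were rich in CG, as were those in narrower domains. The median observed-to-expected CG ratio was 0.786 over 148 promoters, 0.835 over 775 in domains of 1501 to 2000 bp, 0.769 over 9132 in narrower domains and 0.193 over 7437 in no merged domain. The ratio was at least 0.6 in 78.4% of wide-domain promoters and in 48.3% of all 17492. Median GC content was 66.7% in wide domains, 67.3% in the next class, 61.3% in narrower domains and 47.3% in no merged domain.

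Short promoter motifs were then counted on both strands of the same 300 bp windows, where different motifs could overlap. The GC box GGGCGG was in 72.3% of wide-domain promoters and in 46.3% of all listed promoters, with 77.0% in domains of 1501 to 2000 bp and 68.0% in narrower ones. The CCAAT box, CCAAT, was in 26.4%, against 39.0% of all, 30.8% in domains of 1501 to 2000 bp and 40.8% in narrower ones. The ETS core CCGGAAG was in 7.43%, against 11.9% of all, 12% in domains of 1501 to 2000 bp and 19.2% in narrower ones. TATAAA was in 6.76%, against 13.3% of all and 6.23% in narrower domains. These are counts of letters, given without a test, and the differences from the domains of 1501 to 2000 bp rest on few promoters.

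Genes of developmental, transcription factor and signalling lists made up 29 of the 191 coding genes at wide domains. These lists hold 1219 genes, so 2.38% had a wide domain, against 0.873% of all coding genes. Listed genes also had a merged domain of any width at an end more often, 1050 of 1219 against 14393 of 21887. Of those 14393 coding genes, 1.33% had a wide domain. The 29 genes lay at 29 domains, 13.4% of all wide domains and 17.2% of those at a coding gene end, against 8.48% of narrower domains at a coding gene end. The lists were compiled with earlier results of these data known, so the shares are a description. Among the 1479 domains wider than 1500 bp, the share at a gene of these lists was 7.30%.

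Of 99 basic helix-loop-helix genes, 90 had any merged domain at an end. The family had 5 of 99 genes at a wide domain (5.05%, against 0.873% of all coding genes). Besides Bhlhe40 these were Ascl2, which specifies trophoblast and intestinal stem cells, Twist2, a mesenchymal repressor, Myod1, the myogenic master regulator, and Ptf1a, a regulator of pancreas and cerebellum. The domain at Ascl2 measured 2365 bp with highest folds of 10.6 and 12.2, that at Twist2 2229 bp with 7.04 and 6.97, that at Myod1 2185 bp with 5.84 and 8.84, and that at Ptf1a 2077 bp with 5.38 and 7.19. Of these, Ascl2 had the highest fold in both libraries. Homeobox genes outside the Hox clusters had 6 of 164 (3.66%), and 141 of the 164 had any merged domain at an end. Pknox2, a TALE cofactor of Hox proteins, had 2494 bp with 6.45 and 7.63, and Zeb1, the repressor of epithelial genes, had 2260 bp with 5.65 and 8.39. Satb1, which anchors chromatin loops in T cells, had 2108 bp with 5.51 and 8.21. Gsc and Mnx1, regulators of gastrulation and of motor neurons, had 2075 and 2028 bp, with 3.98 and 4.94 and with 10.2 and 10.6. Mnx1 was the only one of the 6 whose highest fold was above the median of all peaks in both libraries.

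Forkhead genes had 2 of 44 (4.55%), Foxe1 and Foxq1, the latter with 2429 bp and folds of 9.44 and 7.70. Further regulators were Insm2, a neuroendocrine zinc finger gene (2046 bp, 8.44 and 7.42), Klf12 (2086 bp, 6.08 and 9.27), Cebpd (2120 bp, 6.39 and 7.59) and Irf4, which directs plasma cell fate (2084 bp, 10.2 and 12.1). In each of the 4 lists they stand for, 1 gene had a wide domain, out of 82, 30, 49 and 35 genes. A count of 1 or 2 in lists of such sizes, here and below, is too few to read as a trait of the list. Genes named Zfp had 7 of 394, a share of 1.78%, with widths from 2028 bp at Zfp407 to 2452 bp at Zfp37. Their highest folds ran from 6.74 and 5.48 at Zfp651 to 16.8 and 16.5 at Zfp91. The others were Zfp467, Zfp704 and Zfp865. Several families had no gene at a wide domain: Hox (39 genes), Sox (20), T-box (16) and Pax (9). With 0.873% of all coding genes at a wide domain, a count of 0 in lists of such sizes, here and below, sets none of them apart.

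Signalling genes at wide domains came from several pathways. Among 19 listed Notch and Hedgehog genes, 18 had any merged domain at an end. A wide domain was at 2 of the 19 (10.5%, against 0.873% of all coding genes). Both encode Notch ligands: Dll1 had 2008 bp and folds of 4.26 and 5.74, and Jag2 had 2084 bp with 9.60 and 7.33. At Dll1 replicate 1 had a long peak of fold 4.26 over the start where replicate 2 had 2 shorter ones of 3.22 and 3.70, and the strongest peak of replicate 2 lay at the other edge. Among FGF ligands, receptors and feedback genes 2 of 36 had one (5.56%). These were Fgf16, a ligand (2033 bp, 6.70 and 8.01), and Spred1, an inhibitor of Ras signalling (2073 bp, 5.12 and 6.71). No gene had one among 45 Wnt ligand and Frizzled genes and 46 genes of the TGF-beta family.

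Outside these lists, 2 parts of the phosphoinositide pathway, which carries GDNF and FGF signals in spermatogonial stem cells, were named after the values were seen. Akt1, its main kinase, had a domain of 2075 bp with 4.75 and 5.88. Rictor, the subunit that defines the mTORC2 complex, had 2038 bp with 10.4 and 9.23. The listed starts of Akt1 and Rictor lay inside their domains, with 1325 and 1065 bp of the domain downstream. Receptor genes in the group included Htr1b for serotonin (2347 bp, 7.69 and 6.77), Ghsr for ghrelin (2403 bp, 8.81 and 10.4), Cnr1 for cannabinoids (2293 bp, 9.06 and 9.59) and Npr1 for natriuretic peptide (2070 bp, 7.58 and 7.77). The Ghsr domain passed 2000 bp in neither library alone, with 1276 bp in replicate 1 and 659 bp in replicate 2.

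Sorted by known role after the genes were seen, the 191 coding genes comprised 44 in signalling, 30 DNA-binding transcription factors, 17 in adhesion, matrix or synapse, 17 for chromatin proteins, cofactors or RNA polymerase subunits, 14 of the cytoskeleton, 11 in metabolism or protein quality, 10 channels or transporters, 9 in glycosylation, 7 in RNA or translation, 3 of sperm or germ granules, 2 in cell cycle or DNA repair and 27 left unclassed. Roles were given to these genes only. No share of a role over all coding genes stands beside the counts, so they are a description. The chromatin group held Arid1b, Nsd1, a histone H3 lysine methyltransferase (2244 bp, 8.61 and 7.47), Epc2, a subunit of the NuA4 acetyltransferase complex (2452 bp, 5.52 and 8.78), and Trim28. Trim28 encodes the corepressor that silences retrotransposons through KRAB zinc finger proteins. Its domain of 2359 bp held 3 peaks with folds of 9.80, 11.3 and 3.32 in replicate 1 and 9.78, 11.2 and 3.21 in replicate 2. The agreement between libraries was close at each of its peaks.

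Adhesion and synapse genes included C1ql3, a secreted synaptic protein gene (2632 bp, 6.08 and 7.37), Fat3, a large cadherin gene (2331 bp, 6.17 and 6.15), Icam1, an adhesion molecule of leukocyte traffic (2399 bp, 9.10 and 8.90), and Col27a1, a fibrillar collagen gene (2299 bp, 4.94 and 5.98). Col27a1 had 6 peaks in replicate 1 and 4 in replicate 2 within nearly the same extent. Solute carriers had 4 of 389 genes (1.03%, against 0.873% of all coding genes): Slc44a1 for choline (2244 bp, 9.53 and 10.9), Slc6a9 for glycine (2107 bp, 10.3 and 9.40), Slc6a15 for neutral amino acids (2027 bp, 16.9 and 19.4) and Slc38a2, also for neutral amino acids (2006 bp, 8.28 and 12.5). Potassium channels had 1 of 94 by gene end (1.06%), Kcnd3 (2451 bp, 5.45 and 6.47). Of the housekeeping list 1 of 35 had one, Gapdh, with 2046 bp. Its central peak had folds of 16 and 16.7 with 319 and 335 tags, between flanking peaks of 2.65 to 3.91. Gapdh thus had weak peaks on both sides of a strong one, unlike Bhlhe40. Measured from the domain centre, its peaks ran from -1023 to 832 bp in replicate 1 and from -970 to 1023 bp in replicate 2. The peaks of neither library inside the domain spanned 2000 bp, so the limit was passed only by the union of both.

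Wide domains lay at 2 genes of the germline lists. Of 37 genes of undifferentiated spermatogonia 1 had one, Lin28a, and of 24 genes of the piRNA pathway and germ granule 1 had one, Tdrd6, a Tudor domain protein gene of the chromatoid body (2009 bp, 7.34 and 6.32). In all, 2 of 148 germline genes (1.35%) had a wide domain at a gene end, against 0.873% of all coding genes, which for a count this small is no difference to read. There was none among 17 genes of differentiating spermatogonia, 38 of meiotic prophase and 32 of spermiogenesis. These lists do not hold the sperm genes Spaca6 and Catsperd, which had a wide domain at an end, nor Catsperg1, which had one inside. At Lin28a, the 5 peaks of replicate 1 had folds of 3.87, 4.05, 3.14, 5.15 and 4.0 and those of replicate 2 had 4.52, 3.34, 4.86, 3.70 and 3.37. The strongest was the fourth in replicate 1 and the third in replicate 2, so the order within this low row was not shared. Its listed start lay 775 bp inside the domain, with 1619 bp downstream.

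No cohesin or CTCF gene had a wide domain at a gene end, 0 of 22, and at the 0.873% of all coding genes a list of this size would rarely hold one. The list held Stag1, Stag2, Stag3, Smc1a, Smc1b, Smc3, Rad21, Rad21l, Rec8, Ctcf, Ctcfl, Nipbl, Mau2, Wapl, Pds5a, Pds5b, Sgo1, Sgo2a, Esco1, Esco2, Cdca5 and Hdac8. Stag1 had one inside the gene, at chr9:100642598-100644703, 2106 bp wide and 44889 bp from the nearest end of the gene model, which begins at 100597709. It covered the listed internal start printed above, with 850 bp upstream and 1255 bp downstream. The main peak had folds of 18 and 18.5 with 247 and 238 tags, among the highest of all wide domains, and the side peak had 2.91 and 2.86. The side peaks of the 2 libraries overlapped only in part, and the domain passed 2000 bp in neither library alone, with 894 bp in replicate 1 and 1848 bp in replicate 2. DNA methylation and Polycomb genes (40), histone genes (98), cytosolic and mitochondrial ribosomal protein genes (81 and 78) and imprinted genes (27) had no wide domain at an end.

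Of the 36 wide domains within a coding gene away from its ends, many lay at an internal start of a shorter transcript. A covered start away from both gene ends was listed for 24 genes, including Stag1, Cpeb1, Catsperg1, Ldha, Map3k1, Magi2, Epha6, Sema4c and the potassium channel genes Kcna2, Kcnj3 and Kcnk13. For these the gene-end measure misses a promoter. Ldha had 2356 bp with highest folds of 11.8 and 8.68, Sema4c, a semaphorin gene, had 2510 bp with 7.52 and 7.71, and Epha6, an ephrin receptor gene, had 2138 bp with 9.75 and 11.4. The nuclear receptor gene Rora had one of 2033 bp, 97000 bp from its nearest end (8.08 and 8.45), and Slc35d3 and Fbxl2 had one each within the gene. In the other direction, 17 genes with an end in a wide domain and a listed start had no start covered, among them Spaca6, Csf2ra, Crlf2, Gse1, Klf12 and Arhgap21. There the domain lay at a 3′ end, at an unlisted start or at a neighbour.

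The 12 domains at no coding gene were led by tRNA genes. Transfer RNA genes are short, carry their promoter inside the gene and are transcribed by RNA polymerase III. In 4 wide domains lay 15 tRNA genes, which is 3.68% of 408 tRNA genes and 6.91% of the 217 that overlapped any merged domain. For coding genes, by reach within 1000 bp of an end, the corresponding shares were 0.873% and 1.33%. The tRNA shares count neighbours in 1 domain separately, and 4 domains hold all 15 tRNA genes. The domain on chromosome 19, 3086 bp wide, held 5 of them, for lysine, leucine, arginine and valine (2 genes). Its 5 peaks had folds of 6.63, 4.29, 3.73, 3.78 and 3.87 in replicate 1 and 6.23, 4.46, 4.42, 4.56 and 4.33 in replicate 2, on backgrounds of 28.5 to 34.2 tags. The other 3 domains held 3 tRNA genes on chromosome 14 (2317 bp, highest folds of 7.68 and 8.56), 3 on chromosome 13 (2154 bp, 8.22 and 8.27) and 4 on chromosome 11 (2143 bp, 5.90 and 5.31). The nearest summit lay a median of 91 bp from the tRNA gene in replicate 1 and 95 bp in replicate 2. The centre of each of the 15 lay under a peak in both libraries.

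**Figure D5:**
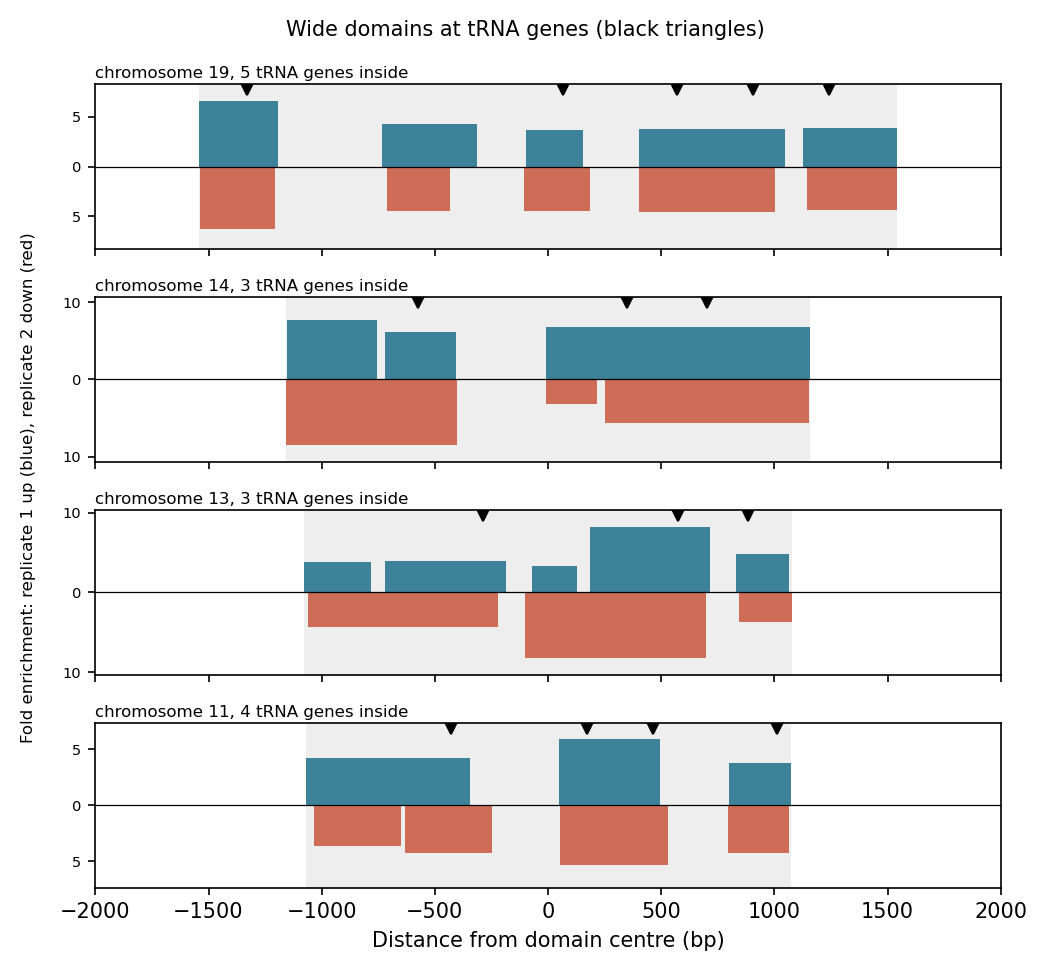
Peaks inside the 4 wide domains with tRNA genes, drawn as distance from the domain centre (bp) against fold enrichment, replicate 1 upward in blue and replicate 2 downward in red, with each tRNA gene marked by a black triangle. All 15 tRNA gene centres lie under a peak in both libraries, and the chromosome 19 domain also has a peak in both libraries with no tRNA gene inside it.

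One domain at no coding gene, 2114 bp on chromosome 3, held Mir9-1, Mir3093 and the antisense Gm25641. miR-9 is a microRNA of neural progenitors. The domain had 4 peaks per library with highest folds of 7.59 and 8.37. Wide domains reached 6 of 1228 microRNA genes (0.489%, against 0.873% of coding genes) in 4 domains. The others were Mir1956 at Eif4e, Mir5130 at Kctd12 and Mir574 between Tlr6 and Fam114a1. The mature sequences inside, from RefSeq on GRCm38.p6 with the seed (bases 2 to 8) in capitals, are shown for 1 arm of each gene, since the seed sets the targets. No 2 of those shown share a seed.
mmu-miR-9-5p: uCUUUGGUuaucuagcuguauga
mmu-miR-9b-5p (Gm25641): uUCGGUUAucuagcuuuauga
mmu-miR-3093-5p: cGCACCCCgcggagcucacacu
mmu-miR-1956: aGUCCAGGgcugagucagcgga
mmu-miR-5130: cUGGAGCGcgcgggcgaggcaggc
mmu-miR-574-5p: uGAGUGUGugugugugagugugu
The domain at Eif4e, which encodes the cap-binding translation factor, was the strongest of the 4, with 2286 bp and folds of 13.2 and 17.0. Peaks do not show which gene of a domain is transcribed.

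Long noncoding RNA genes had an end in 50 wide domains (23%), against 18.9%, 14.3% and 6.19% in the 3 narrower classes from wide to narrow. These were 54 genes, or 0.424% of 12727, against 0.873% of coding genes. A longer domain reaches an end more easily, and no count by domain centre was made for long noncoding RNA genes. Some neighbour a coding gene named above, such as Kcnd3os at Kcnd3, Ptf1aos at Ptf1a and 0610040F04Rik at Bhlhe40. Only 2 wide domains touched no gene model of any kind, 0.922% of the 217, although the share was 4.76% of the wide domains from replicate 1 alone. They were 1 of 2228 bp on chromosome 14, 64245 bp from Ipo5, with folds of 14.2 and 12.8, and 1 of 2005 bp on chromosome 3, 17477 bp from 2410004B18Rik, with 6.07 and 8.49. A further domain of 2078 bp lay 14722 bp from Egr2, a zinc finger regulator of hindbrain and Schwann cells, with 13.7 and 13.5.

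Wide domains lay on every autosome and on X. No expected spacing was worked out, so whether they cluster was not tested. Chromosome 2 had the most, 23, and chromosome 3 the highest share of its merged domains, 0.477%. The X chromosome had 2 (0.106%), 1 of them at Fgf16, and Y had 0 of 47. No 2 neighbouring wide domains lay within 100 kb of each other, the closest pair was 108055 bp apart, and 18 pairs lay within 1 Mb. The median number of merged domains within 50 kb was 4 around wide domains and 5 in each narrower class. Over domains at coding gene ends alone it was 4 in wide domains and 4, 4 and 5 in the narrower classes, with equal medians in the 3 widest classes.

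In 14 wide domains the background of the strongest peak was above the 99th percentile of all peaks, 21.8 and 23.9 tags, in both libraries. Among them were the widest domain, the tRNA domains on chromosomes 19 and 11, 1 on chromosome 8 at no coding gene, Catsperg1, and the domains at Csf2ra, Crlf2, Trim28, Epc2, Zfp91 with Lpxn, Arhgap21, Bmt2 and Lcorl. Their part in the results was not tested. In an alternative added after the data were seen, leaving them out, 203 wide domains remained, with 13.8% at a gene of the transcription factor and signalling lists against 13.4% with them.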

How the data were processed

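ATAC-seq was measured in 2 libraries of mouse Stag3 KO GSCs, which the labels put in 1 group with replicate numbers from their titles. Per the submitters' processing notes, the tools named are MACS2 (version 2.1.1), Bowtie2 (version 2.3.4.1), Picard (version 2.18.23), deepTools (version 3.5.0), bedtools (version 2.29.2) and Trim Galore, in no stated order, and the genome is named both GRCm38.p3 and mm10. Whether reads were shifted for Tn5, duplicates removed or regions masked is not given in the sources used here, and such steps set where peaks begin and end. The authors deposited 1 peak list per library, so peaks were called per sample. Each peak carried a fold ratio over local background, a −log10 p-value and −log10 q-value, and a deposited score that was not used.

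Peaks were joined with Python 3.11.15, numpy 2.4.6, pandas 2.3.3 and scipy 1.17.1. All overlapping pairs were joined, by at least 1 bp, and unions within 500 bp were merged. Tags at a summit were the whole number that satisfies both the fold, (tags + 1)/(background + 1), and the Poisson p-value, and were found for 100% of peaks within a relative tolerance of 1e-05. Read depth is unknown, so no counting interval was given. The joining was checked on simulated intervals. Gene models were RefSeq's on GRCm38.p6, and exons and introns were not used here. Promoter and miRNA sequences came from RefSeq tables on that build, and 147 of the 191 genes at wide domains had a listed start.

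The domains, the gene lists (38, with 8 symbols not matched) and the classes were chosen with earlier results of these data known. Named genes were those at the 15 widest domains, up to 8 per list, the 3 domains on each side of the limit, the 5 highest and 5 lowest in fold, domains at no gene model and every cohesin gene. Some genes that this rule names are left out here. Others are said to be added after their values were seen, and so are the role classes and the genes described under them. No test was run, since the rule used the peaks and there is 1 group. Alternatives changed the joining distance, peak filter, overlap, library, width limit and gene window.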

Additional observations from a re-analysis of the deposited data

How the results depend on the processing

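The number of wide domains was 217. It was 7, 69 and 770 when regions were joined within 0, 250 and 1000 bp, 88 from the intersection of the peaks, 0 from the 50000 strongest peaks of each list, 1479 above 1500 bp and 5 above 3000 bp. Wider joining and a lower limit admit more domains by construction. The median width of 2177 bp became 2082, 2120 and 2270 bp for the 3 joining distances and 2127 bp for the intersection. The median highest fold of 8.58, over both libraries, became 6.96, 7.62 and 9.86 for the joining distances, 10.5 above 1500 bp and 6.43 above 3000 bp. The share at a coding gene end of 77.9% became 85.7% at 0 bp, 67.5% at 1000 bp, 85.2% for the intersection, 74.3% above 1500 bp, 60% above 3000 bp, 81.6% with a 2500 bp window, 94.5% by any overlap with a gene model and, chosen after seeing the data, 62.2% by the domain centre. The share at a transcription factor or signalling gene of 13.4% became 14.3%, 14.5% and 10.9% for the joining distances, 13.8% with overlap of 50%, 13.9% with −log10 q of 5 or more, 12.5% for the intersection, 7.30% above 1500 bp, 20% above 3000 bp, 12.9% and 13.8% with windows of 500 and 2500 bp, 14.7% by any overlap with a gene model, and 13.8% without the domains of high background, also chosen after seeing the data. The share touching no gene model, 0.922%, became 8.96% at 1000 bp and 4.19% above 1500 bp. With 1 library left out, the ranges were 203 to 210 domains, 77.6% to 81.8% at a coding gene end, 13.8% to 14.3% at a listed regulator and 1.48% to 4.76% touching no gene model. The 28 other values moved by less than the spread between libraries, or for counts by less than 1.5 times. With the 50000 strongest peaks no domain was left, so no share could be given. Beyond construction, the cause was not tested. No paired analysis was possible because the series has 1 group. Depth is unknown, so how far it limits the calling of weak peaks cannot be given.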
